A study of Mus musculus
Rattus norvegicus and Mus musculus with 6 samples.

Results

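Transcription factors of the blood lineages and of the immediate early response were described in mouse lin-/c-kit+ hematopoietic SC kept with or without heart muscle cells. The factors were taken by a pattern of gene symbols, which used no signal of the arrays but was drawn up with earlier results of these data known. It covered the GATA, KLF, RUNX, C/EBP, FOS, JUN, EGR, NF-kB, ETS, IKZF, MYB, MYC, NFE2, MAF, ATF, CREB, ID and SP families, together with Tal1, Lyl1, Lmo2, Gfi1, Fli1, Erg, Meis, Mecom, Bach, Mitf, Spi1 and Zfpm1. On the arrays, 84 probes of 64 such genes carried a gene ID in their name, out of 9796 probes of 8102 genes with such an ID and 46628 probes in all. The name pattern also took in some proteins that only bind or regulate these factors, such as Mycbp, Maf1 and Atf7ip.

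Lin-/c-kit+ SC are bone marrow cells that lack the surface markers of mature blood lineages and carry the receptor KIT. In the labels, the SC came from the tibia and femur of male C57Bl/6 mice, and the age of the mice is not given in the sources used here. For coculture, CFDA-labelled SC were kept for 48 h with neonatal ventricular cardiac myocytes of Wistar rats (NRVCM), and for monoculture SC were kept alone for 48 h. Both kinds of SC were sorted by FACS in 2 rounds, and RNA of 3 separate experiments per group was hybridized to 6 Illumina mouse bead arrays. According to the methods, monoculture wells held more SC than coculture wells, so that SC density and coculture cannot be told apart.

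Blood lineage factors bind DNA in small combinations that hold open the genes of one lineage and shut those of others. GATA1, KLF1 and NFE2 are known for red cells and platelets, C/EBP factors and KLF4 for granulocytes and monocytes, IKZF and GATA3 for lymphocytes, and RUNX1, LMO2 and ERG for stem cells. Immediate early factors such as FOS, JUNB, EGR1 and KLF6 are made within minutes of a signal from messages that are soon broken down again.

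Signals are given on the log2 scale of the deposited, normalized values, where 1 unit is a doubling, and differences are coculture minus monoculture. Probes were called when limma's empirical Bayes test gave an adjusted p under 0.05 over all 46628 probes and the change exceeded 1.5-fold. As background limit, each array had the highest signal among 22 control probes against reporter or vector sequences, which lay between 6.57 and 6.71. Correlations of the 6 arrays ran from 0.987 to 0.993 within the groups and from 0.967 to 0.977 between them. Coculture replicate 2 differed from the other arrays in sex-linked RNA. Eif2s3y (8.93) and Kdm5d (6.94), both Y-linked, were above background on this array only, and the brighter Xist probe was at 6.84 there against 8.21 to 8.80 on the others, although the labels name male mice throughout. Probes of the Y-linked genes Ddx3y and Uty and the dimmer Xist probe were at background on all 6 arrays, this one included. The 3 monoculture arrays also had the MHC class I gene H2-D1 at background, against 11.83 to 12.68 in coculture (adjusted p = 0.00027). The H2-D1 split remained without coculture replicate 2 (difference 5.85, adjusted p = 0.00141). A difference in the mice behind the groups would run along the whole comparison, Id3, Klf4 and Mycbp included, and cannot be told apart from coculture here. Because of the sex-linked RNA, each member's call below is also given without coculture replicate 2. Of 23 called probes in the lists of related and marker genes, H2-D1 counted in, 21 passed without this array, the exceptions being Cxcl1 and Elane. Without monoculture replicate 1 it was 17. The calls that failed with 1 or more of the arrays left out were those of Cxcl1, Elane, Thbs1, Hspd1, Gp1bb, Phgdh and the brighter Gpnmb probe. Of the progenitor markers only Hlf had a named probe, which was at background, so the c-kit+ label could not be checked against Kit or Cd34. Of 4 named heart muscle probes, 3 were at background on all 6 arrays, and all 6 fibroblast probes were as well.

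Id3 was lower in cocultured SC, Klf4 and Mycbp were higher, and no other factor passed the test. These calls amounted to 4 probes higher (3 of Klf4 and 1 of Mycbp) and 1 lower, out of 84. Over all probes of the arrays the same rule called 3.65%, namely 1.73% higher and 1.93% lower, and 5.21% of those with a gene ID. The share of members called was thus near the background share and is not a result about the factors as a group. The median difference over the member probes was -0.00365, against -0.00128 over all probes. At an adjusted p under 0.05 with no condition on the fold, 7 member probes passed, adding Atf2 and Mafg, against 6.46% of all probes. The 3 coculture arrays lay entirely above the 3 monoculture arrays for 10 member probes and entirely below for 6, where 23.1% of all probes had groups that did not overlap. In the plot of all member probes, most points lie within 1.5-fold of no difference.

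**Figure D1:**
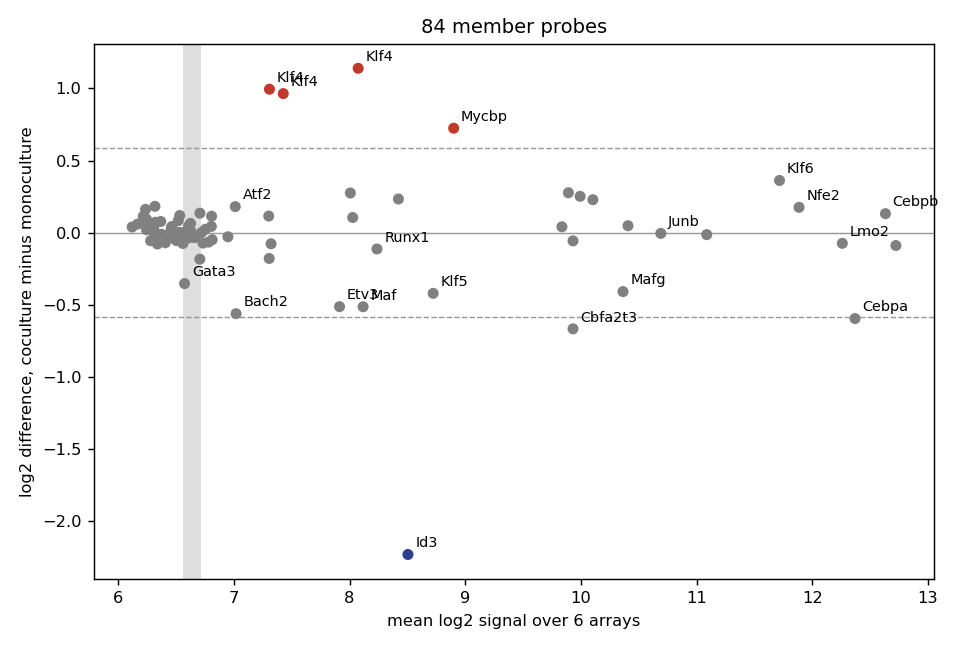
Difference between coculture and monoculture (log2) of each of the 84 member probes against its mean log2 signal over 6 arrays, with the grey band at the background limits of 6.57 to 6.71 and dashed lines at 1.5-fold. Probes that passed the test are coloured: the 3 Klf4 probes and 1 Mycbp probe lie above the upper line and Id3 at -2.23, while 77 of the 84 probes lie within 1.5-fold.

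Much of this set was dim. A total of 36 member probes (42.9%), representing 34 genes, were above background on all 6 arrays, close to the 43.5% of all probes with a gene ID. A further 25 probes (29.8%) were at background on all 6 arrays. For 11 genes every probe was at background throughout: Atf1, Cbfa2t2, Crebbp, Ikzf2, Ikzf3, Ikzf4, Klf11, Klf12, Klf17, Myc and Runx3. A background signal gives only an upper bound for that probe and no fold change. The remaining 19 genes exceeded the limit on some arrays at best, among them Gata3, Ikzf1, Erg, Ets1, Mecom, Rel and Bach2. Of 43 classical factors listed by name, 19 had a named probe. The other 24 are not analysed here, among them Gata1, Gata2, Klf1, Zfpm1, Tal1, Lyl1, Gfi1, Gfi1b, Meis1, Myb, Spi1, Cebpe, Mitf, Id2, Fos, Fosb, Jun, Egr1, Atf3, Atf4, Nfkb1, Rela and Relb. Names outside this list of 43 and outside the calls were chosen after their values were seen, namely Mafg, Atf2, Etv3, Cbfa2t3, Nfe2l1, Maf1, Bach1, Klf3, Klf5, Klf7, Egr2, Egr3, Fosl2, Ets2, Creb1, Sp1, Atf7 and Atf7ip.

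ID proteins hold a dimerization surface but no DNA-binding part, and they keep E proteins, the partners of many lineage factors, off DNA. Id3, like other ID genes, is known as a target of BMP signals in many cells. Its signal in cocultured SC was 7.20, 7.32 and 7.64, and in monocultured SC it was 9.50, 9.83 and 9.53. Every coculture array lay far below every monoculture array, yet still above background. The group means were 7.39 ± 0.23 (SD, n = 3) and 9.62 ± 0.18 (SD, n = 3), and the difference was -2.23 (standard error 0.14, adjusted p = 0.00116 in limma), a 4.71-fold lower signal. Its 95% interval ran from -2.57 to -1.90. Without coculture replicate 2 the difference was -2.20 (adjusted p = 0.00449). Because each array carries the RNA of a whole sorted population, fewer cells of a type and less RNA per cell cannot be told apart. No other member of its family had a named probe.

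Some monocyte and macrophage markers fell alongside Id3. Of 10 such markers, 8 genes had named probes, and 4 of their 10 probes fell (Gpnmb on both of its probes, Cd68 and Mertk) while none rose. Among the 4264 probes with a gene ID above background on all 6 arrays, 4.97% were called lower. The marker lists were chosen with earlier results of these data known. The probes of Apoe, C1qa, C1qb, Csf1r and Lyz2 did not pass. The summed signal of the brightest probe of each of the 8 genes, on the linear scale, was 25200 to 35400 per coculture array. It was 62300 to 68100 per monoculture array. Lyz2, which did not pass, was the largest part of this sum on every array and most of it in coculture. Of 7 megakaryocyte markers only Itga2b and Gp1bb were measured, and both fell, with a summed signal of 233 to 373 against 1010 to 2410. The part of these markers in the Id3 result, and in those of the other factors, was not tested.

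KLF4 is a zinc finger factor that drives monocyte differentiation in mouse progenitors and belongs to the early response of many cells to stress and growth signals. All 3 of its probes rose. On probe 1, the brightest, the coculture arrays read 8.77, 8.40 and 8.76 and the monoculture arrays 7.56, 7.06 and 7.89. Probe 2 read 8.14, 7.65 and 7.94 in coculture and 6.80, 6.71 and 7.33 in monoculture. Probe 3 read 7.87, 7.60 and 7.95 in coculture and 6.80, 6.44 and 7.20 in monoculture. No coculture array overlapped a monoculture array on any of the 3 probes, and on each probe monoculture replicate 2 was the lowest of all 6 arrays, at background on probe 3. The differences were 1.14 (standard error 0.22, adjusted p = 0.0313), 0.96 (standard error 0.19, adjusted p = 0.0373) and 0.99 (standard error 0.20, adjusted p = 0.0356), about 1.95-fold to 2.20-fold. The probes read the same message and do not count as separate evidence. Without coculture replicate 2 they passed (adjusted p = 0.0408, 0.0387 and 0.0481). The call depended on other single arrays: none of the 3 probes passed without coculture replicate 1 (adjusted p = 0.112, 0.118 and 0.121), coculture replicate 3 (0.0924, 0.101 and 0.103) or monoculture replicate 1 (0.102, 0.134 and 0.121), and only probe 1 passed without monoculture replicate 2. The differences stayed between 0.81 and 1.17 in these fits, so that the lost calls came with a change of similar size. The plot of the called genes by array shows the wider spread of Klf4 in monoculture.

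**Figure D2:**
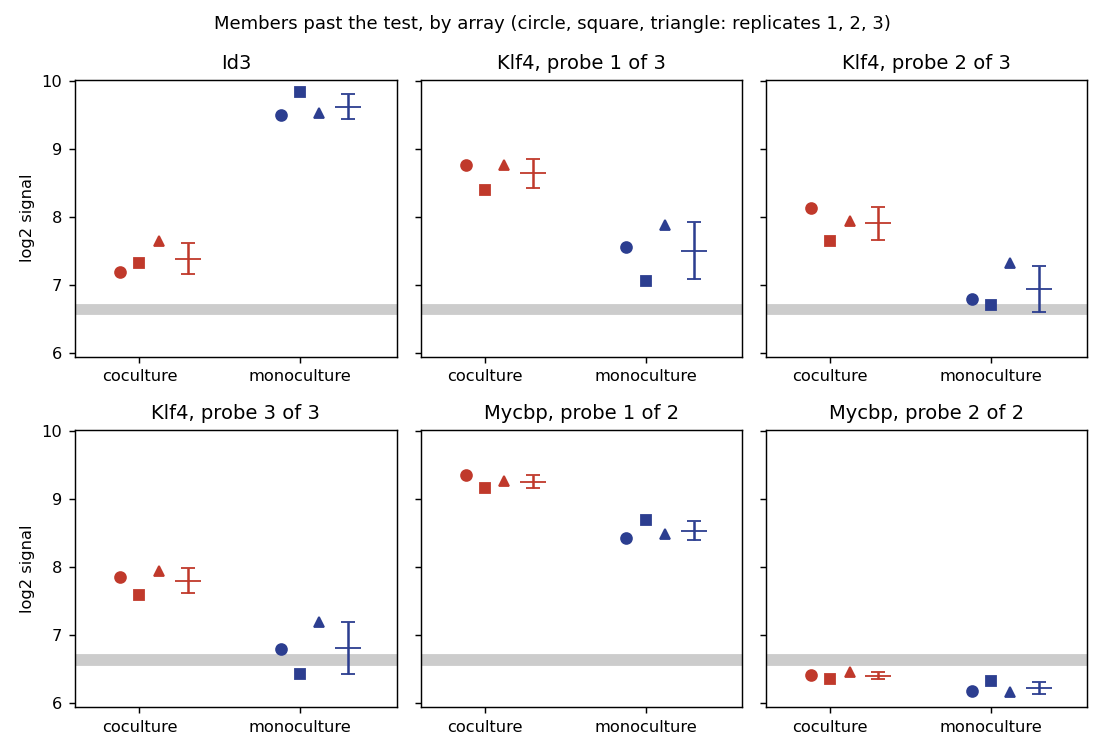
Log2 signal of the called genes on each array (circle, square and triangle for replicates 1, 2 and 3), with the group mean and SD beside the points and the background limits as a grey band. The groups are separate in every panel, with Id3 lower and Klf4 and the brighter Mycbp probe higher in coculture, while Mycbp probe 2 stays at background.

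Mycbp encodes a small protein that binds the N-terminal part of MYC and was taken in by its name. Its brighter probe read 9.36, 9.16 and 9.26 in coculture and 8.43, 8.70 and 8.49 in monoculture. The arrays of each group lay close together and did not overlap. The difference was 0.72 (standard error 0.09, adjusted p = 0.00782), and without coculture replicate 2 it was 0.77 (adjusted p = 0.0125). The call was lost when each array was centred on the median of its probes above background (adjusted p = 0.219), although the difference was still 0.64. The dimmer probe was at background on all 6 arrays. The single Myc probe was also at background, from 6.05 to 6.17, so that the level of MYC's message gave only a bound. Genes that MYC is known to raise for growth were, apart from Odc1, above background on all 6 arrays, but the activity of MYC was not tested. Of 11 such genes with 1 probe each, 3 rose and none fell, and the median difference was 0.54. Beside this, 5.86% of the 4264 probes with a gene ID above background were called higher and 4.97% lower. The median difference of those probes was 0.03. The list of growth genes was chosen with earlier results of these data known. Nop58, which guides RNA modification in ribosome making, read 11.03, 10.86 and 10.95 in coculture and 10.04, 10.15 and 10.04 in monoculture, without overlap (difference 0.87, adjusted p = 0.00162). The glycolytic enzyme gene Ldha (0.95, adjusted p = 0.00312) and the mitochondrial chaperone gene Hspd1 (0.73, adjusted p = 0.0417) were the others. Hspd1 passed only without coculture replicate 2 among the fits with 1 array left out, its adjusted p otherwise running from 0.0572 to 0.139.

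Factors of red cells and platelets did not pass. NFE2, which pairs with small MAF proteins to switch on globin and platelet genes, had signals of 11.90, 11.96 and 12.06 in coculture and 11.88, 11.68 and 11.83 in monoculture. The groups were separate by a narrow gap, and the difference was 0.18 (standard error 0.07, adjusted p = 0.245). Mafg, one of the small MAF partners, read 10.25, 10.25 and 9.97 in coculture and 10.54, 10.52 and 10.65 in monoculture. All coculture arrays lay below all monoculture arrays, and the difference of -0.41 (standard error 0.09, adjusted p = 0.0473) reached the adjusted p but not 1.5-fold. It reached that adjusted p in 5 of 13 alternative fits and missed it without coculture replicate 2 (0.0589). Bach1, a repressor at the same DNA sites that heme displaces, read 8.06, 8.50 and 7.87 in coculture and 7.80, 7.96 and 7.85 in monoculture, and the groups overlapped (difference 0.27, adjusted p = 0.456). Fli1, an ETS factor of platelet precursors, read 8.02, 7.93 and 8.29 against 7.79 to 8.13 in monoculture, also with overlap, and its difference was 0.10 (95% interval -0.19 to 0.40).

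Genes known to lie under these factors moved in both directions. Among 4 measured megakaryocyte genes, Itga2b, the platelet integrin alpha subunit, fell, with signals of 7.02, 7.77 and 7.97 in coculture and 10.27, 9.57 and 9.29 in monoculture. Its groups did not overlap (difference -2.12, adjusted p = 0.0168). Gp1bb, part of the platelet receptor for von Willebrand factor, fell as well (-2.51, adjusted p = 0.017), whereas the adhesion protein gene Thbs1 rose (1.27, adjusted p = 0.0275). In coculture Gp1bb read 6.69, 6.71 and 6.93, close to the background limits of 6.57 to 6.71, so the size of its fall is uncertain. Gp1bb missed the threshold without coculture replicate 1 (adjusted p = 0.0674), and Thbs1 missed it without coculture replicate 1 or 3 or monoculture replicate 1 or 3 (0.0699, 0.0592, 0.0911 and 0.0778). None of 7 probes of 6 erythroid genes passed. Hba-a1, an alpha globin gene, read 9.93, 6.87 and 7.77 in coculture and 9.18, 10.82 and 7.83 in monoculture, a spread within each group larger than the difference of -1.09.

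NFE2 relatives and small MAF proteins also serve the response to oxidative stress through NFE2L2. Of 9 measured genes of this response with 12 probes, 6 probes of 4 genes fell and none rose, and the median difference was -0.55. Among the 4264 probes with a gene ID above background on all 6 arrays, 4.97% were called lower and 5.86% higher. The median difference of those probes was 0.03. This list was chosen with earlier results of these data known, and 3 of its 6 called probes are of Srxn1. Srxn1, which repairs oxidized peroxiredoxins, fell on all 3 probes, the brightest of which read 9.99, 9.67 and 9.79 in coculture and 11.70, 11.55 and 11.74 in monoculture. These groups were well apart (difference -1.85, standard error 0.09, adjusted p = 0.000676). Slc7a11, the cystine transporter (-2.12, adjusted p = 0.00774), Gclm, of glutathione synthesis (-1.21, adjusted p = 0.00355), and Taldo1, of the pentose phosphate pathway (-0.64, adjusted p = 0.00416), fell too. Ftl1, Pgd and Prdx1 did not pass. Nfe2l1, the measured relative of NFE2L2, had a difference of -0.01 with a 95% interval of -0.16 to 0.13, and its signals of 11.02 to 11.20 overlapped fully.

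**Figure D3:**
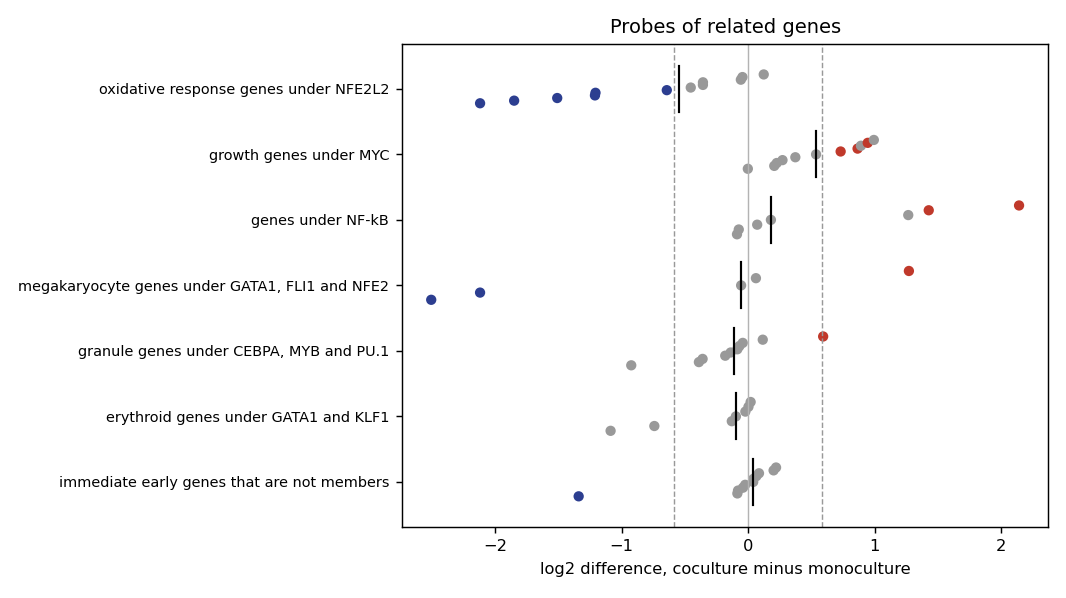
Difference between coculture and monoculture (log2) of each probe of genes known to lie under the described factors, 1 row per list, with the median of the list as a black bar, dashed lines at 1.5-fold and called probes coloured. The oxidative response genes (median -0.55) have calls only on the lower side, and the growth genes under MYC (median 0.54) only on the higher side.

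None of 8 probes of 6 stem and progenitor factors passed. LMO2 bridges GATA, TAL1 and LDB1 in one complex, and its signal was 12.46, 12.17 and 12.04 in coculture and 12.31, 12.27 and 12.31 in monoculture. The coculture arrays lay on both sides of the monoculture arrays. The difference was -0.07 with a 95% interval of -0.33 to 0.18, inside 1.5-fold. Runx1, the core factor of blood stem cell formation, read 8.38, 7.83 and 8.32 against 8.27, 8.40 and 8.21, with coculture replicate 2 lowest, and the interval of its difference ran from -0.47 to 0.24. Cbfa2t3, a corepressor that joins the TAL1 and LMO2 complex, read 9.80, 9.83 and 9.16 in coculture and 10.49, 10.21 and 10.10 in monoculture. Its groups did not overlap, and the difference of -0.67 exceeded 1.5-fold but not the test (standard error 0.20, adjusted p = 0.123). Erg exceeded the limit on 1 array (6.57) and Mecom on 3 (6.62 to 6.63).

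Granulocyte and monocyte factors other than Klf4 did not pass. CEBPA is required for granulocyte formation, and its brighter probe read 11.84, 11.99 and 12.38 in coculture and 12.82, 12.28 and 12.90 in monoculture. Coculture replicate 3 lay above monoculture replicate 2, so the groups overlapped by 1 array each. The difference was -0.60 (standard error 0.20, adjusted p = 0.178), while the dimmer Cebpa probe had a difference of the opposite sign, 0.23 (adjusted p = 0.673), with signals of 7.92 to 8.89. Cebpb, which raises granulocyte output under stress, read 12.80, 12.76 and 12.54 against 12.55, 12.27 and 12.87 with overlap, and its difference was 0.13 (95% interval -0.24 to 0.50). Of 10 probes of 7 granule and myeloid genes known to lie under CEBPA, MYB and PU.1, 1 rose and none fell. Among the 4264 probes with a gene ID above background, 5.86% were called higher. The probe that rose was for Elane, neutrophil elastase, with signals of 14.47, 14.70 and 14.65 in coculture and 13.95, 14.01 and 14.08 in monoculture (difference 0.59, adjusted p = 0.00797). It dropped under 1.5-fold without coculture replicate 2 or 3 or monoculture replicate 1 (0.55, 0.57 and 0.56). Mpo, myeloperoxidase, read 14.51, 14.66 and 14.58 against 14.46, 14.28 and 14.66 and overlapped. Granulocyte precursor markers, measured by these same 2 genes, summed to 46100 to 52600 in coculture and 36400 to 43300 in monoculture on the linear scale.

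Maf, a macrophage and lymphocyte factor, had the widest spread of the bright members in coculture. Its signals were 7.81, 8.72 and 7.05 in coculture and 8.36, 8.47 and 8.30 in monoculture. Coculture replicate 2 was the highest of all 6 arrays and coculture replicate 3 the lowest, whereas the monoculture arrays lay together (SD 0.84 against 0.08). The difference was -0.52 (adjusted p = 0.596), and -0.94 without coculture replicate 2 (adjusted p = 0.0774). Among the macrophage markers described above, Gpnmb, a glycoprotein of macrophages and melanocytes, read 10.78, 10.32 and 7.97 in coculture and 14.30, 14.43 and 14.24 in monoculture on its brighter probe (difference -4.63, adjusted p = 0.0153, and 0.0626 without monoculture replicate 1). Its dimmer probe, at background on all 3 coculture arrays, passed in every fit with 1 array left out. On the brighter probe coculture replicate 3 was again the lowest of all arrays. C1qb, a complement subunit of macrophages, read 10.21, 11.90 and 10.20 against 11.88, 12.05 and 11.86 and did not pass (adjusted p = 0.241).

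Immediate early factors, with Klf4 and Id3 counted in, had calls in both directions. Of 13 probes of 10 such genes, 3 were called higher, all of Klf4, and 1 lower, of Id3. Over all probes 1.73% were called higher and 1.93% lower. The median difference of the list was 0.23, against -0.00128 over all probes. JUNB, a partner of FOS in AP-1, had signals of 10.08, 10.88 and 11.11 in coculture and 10.81, 10.59 and 10.67 in monoculture. The coculture arrays surrounded those of monoculture, with replicate 1 lowest and replicate 3 highest of all 6. The difference was -0.01 with a wide 95% interval, -0.62 to 0.61. Klf6 read 11.51, 12.03 and 12.15 in coculture and 11.54, 11.75 and 11.32 in monoculture, and Klf2, a factor of quiescent lymphocytes and monocytes, read 9.81, 10.23 and 10.32 against 10.13, 9.41 and 10.06. In both, coculture replicate 1 was the lowest coculture array and lay within the range of monoculture. Their differences were 0.36 (adjusted p = 0.399) and 0.25 (adjusted p = 0.67). Fosl2, an AP-1 subunit, read 10.12, 10.21 and 9.76 against 9.58, 9.60 and 10.08, and monoculture replicate 3 overlapped coculture (difference 0.28, adjusted p = 0.502). Ets2, a target of MAP kinases, read 10.37, 10.07 and 10.22 against 9.95, 10.11 and 9.90 (difference 0.23, adjusted p = 0.258). Egr2 and Egr3, zinc finger factors downstream of MAP kinase and calcium signals, had differences of -0.08 and -0.03, with signals of 7.03 to 7.66 and 6.85 to 7.06.

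Most other immediate early genes were dim. Of 11 probes of 7 immediate early genes outside the factor families, 5 were at background on all arrays, 1 fell and none rose. The probe that fell was for Sgk1, a kinase gene induced by serum and glucocorticoids, at 10.56, 10.70 and 10.96 in coculture and 11.91, 12.25 and 12.08 in monoculture without overlap (difference -1.34, standard error 0.13, adjusted p = 0.0038). The NF-kB subunit gene Rel was at background on all 3 coculture arrays and at 6.64 to 6.91 in monoculture, at least 1.10-fold lower in coculture against the limit, and it did not pass (adjusted p = 0.305). Of 7 probes of 6 genes known to lie under NF-kB, 2 rose and none fell. Over all probes of the arrays, 1.73% were called higher and 1.93% lower. The NF-kB list was chosen with earlier results of these data known. The survival gene Bcl2a1a, whose probe may also bind near-identical copies of the gene, read 9.77, 9.82 and 9.73 in coculture and 8.37, 8.26 and 8.41 in monoculture (difference 1.43, adjusted p = 0.000352). The chemokine gene Cxcl1 read 8.88, 9.62 and 10.75 against 7.46, 8.06 and 7.30 (difference 2.14, adjusted p = 0.0493), and Cxcl2 did not pass (1.27, adjusted p = 0.361). Leaving out coculture replicate 2 ended the call of Cxcl1 (adjusted p = 0.0986), as did leaving out any 1 of the monoculture arrays (0.0774 to 0.164).

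Among the KLF members without a call, several varied more between arrays of 1 group than between the groups. Klf3, a repressor in red cell and B cell precursors, read 10.40, 11.04 and 9.85 in coculture and 10.55, 10.30 and 10.31 in monoculture. Coculture replicate 2 was the highest and replicate 3 the lowest of all arrays, and the difference was 0.05 (95% interval -0.63 to 0.73). Klf5 read 8.37, 8.66 and 8.51 against 9.28, 9.16 and 8.37. Here monoculture replicate 3 lay at the level of coculture, and Klf5 passed only when that array was left out (difference -0.71, adjusted p = 0.0226, against -0.42 and 0.449 with all arrays). Klf7 had signals of 9.59 to 10.20 and a difference of -0.06. Across the 36 member probes above background on all arrays, the median SD was 0.20 in coculture and 0.119 in monoculture, beside 0.136 and 0.134 over the 4264 probes with a gene ID above background. An SD over 0.5 occurred for 3 member probes in coculture (Maf, Klf3 and Junb) and for none in monoculture. The highest and lowest coculture arrays were not the same ones from gene to gene: Maf, Klf3 and Bach1 were highest in replicate 2, and Junb, Klf6 and Klf2 lowest in replicate 1.

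**Figure D4:**
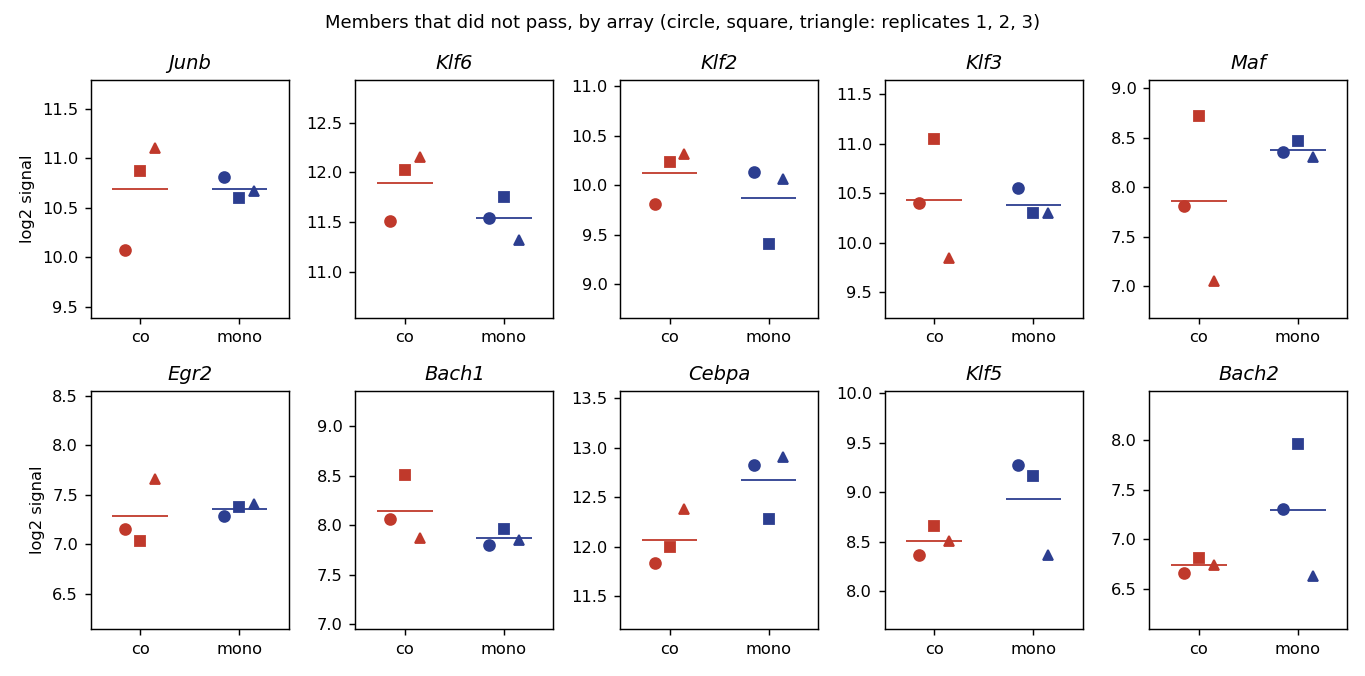
Log2 signal on each array (circle, square and triangle for replicates 1, 2 and 3) of 10 members that did not pass, with the group mean as a line and an equal span of signal in every panel. Maf spans 7.05 to 8.72 in coculture and 8.30 to 8.47 in monoculture, and Junb, Klf6 and Klf2 have replicate 1 as the lowest coculture array.

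Etv3, an ETS repressor induced in macrophages, was the factor closest to a call among the rest of the ETS family. Its signals were 7.62, 7.63 and 7.72 in coculture and 8.16, 8.42 and 7.94 in monoculture, with all coculture arrays below. The difference of -0.51 missed both parts of the rule (standard error 0.12, adjusted p = 0.0593) and passed without monoculture replicate 3 (-0.63, adjusted p = 0.0244). None of 15 probes of 11 ETS genes passed. Among 9 probes of 6 ATF and CREB genes none passed either. Atf2, which is activated by stress kinases, read 7.08, 7.13 and 7.09 against 6.90, 6.93 and 6.94, and its small separate difference of 0.18 reached the adjusted p (0.0493) but not 1.5-fold. It reached that adjusted p in 0 of 13 alternative fits, the lowest being 0.0502 and the value without coculture replicate 2 0.117. Of 4 measured amino acid response genes known to lie under ATF4, the serine synthesis gene Phgdh rose (1.04, adjusted p = 0.0196, and 0.0524 to 0.0742 without coculture replicate 1 or any 1 monoculture array) and Slc7a11 fell. Creb1 (0.11), Atf7 (0.04) and the SP factor gene Sp1 (-0.18) did not pass.

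Lymphoid factors were mostly near the limit of detection. Gata3, a T cell factor, was at background on all 3 coculture arrays and at 6.69, 6.64 and 6.92 in monoculture (adjusted p = 0.0746). Its monoculture mean was 1.07-fold above the mean limit of the coculture arrays, and it did not pass. Bach2, a repressor that keeps lymphocytes undifferentiated, read 6.66, 6.81 and 6.74 in coculture and 7.31, 7.96 and 6.64 in monoculture, and monoculture replicate 3 was the lowest of all 6 arrays (difference -0.56, adjusted p = 0.426). Ikzf1 was at 6.67 to 6.96, with a difference of 0.11, and the brighter Ets1 probe exceeded the limit on 1 coculture array only. None of 15 probes of 12 lymphoid factors passed, and 6 of these probes were at background throughout.

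For several bright members the interval of the difference bounded the change. The 95% interval lay within 1.5-fold for 19 of the 36 member probes above background on all arrays, and for 65 of all 84, many of the latter being dim probes near background. Maf1, a repressor of RNA polymerase III, read 12.65, 12.75 and 12.64 in coculture and 12.72, 12.76 and 12.82 in monoculture, and its interval ran from -0.21 to 0.03. Among these 36 probes 3 were called higher and 1 lower, beside 5.86% higher and 4.97% lower, 10.8% in all, of the 4264 probes with a gene ID above background. The groups did not overlap for 6 of the 36 in the higher and 4 in the lower direction, beside 41.5% of the 4264 in either direction. The median size of the difference, sign aside, was 0.177 beside 0.219.

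**Figure D5:**
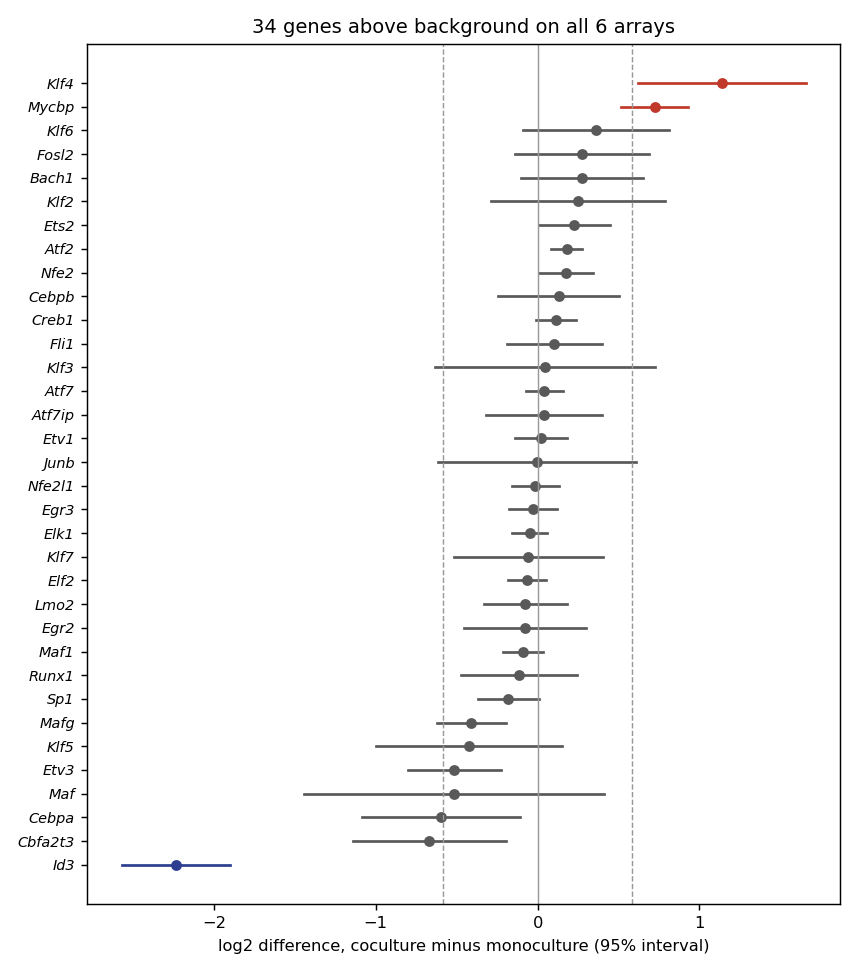
Difference between coculture and monoculture (log2, point) with its 95% interval (line) for the 34 member genes above background on all 6 arrays, brightest probe of each, with dashed lines at 1.5-fold and called genes coloured. Id3 stands apart at -2.23 and Klf4 (1.14) and Mycbp (0.72) at the other end, while the intervals of Lmo2, Cebpb, Nfe2, Nfe2l1 and Maf1 stay within 1.5-fold.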

How the data were processed

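Per the methods, the authors read all beads singly on Illumina Mouse Sentrix-6 arrays, dropped outlier beads by their median absolute deviation, averaged the rest per probe and applied quartile normalization. The deposited values are log2 signals with the same distribution on all 6 arrays (5.81 to 14.85). Background correction and genome build are not given in the sources used here. A second table, not normalized, with 6 signal and 6 detection p columns that name no sample, was not used. Arrays carry no read depth, so the number of arrays limits the precision, and p-values measure the spread between these 3 and 3 arrays.

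Probes were named through the mouse gene ID in the probe name and a RefSeq table (GRCm38.p6), giving 9796 probes of 8102 genes. Differences were fitted with limma 3.58.1 in R 4.3.3 (lmFit and eBayes, two-sided) and adjusted by Benjamini and Hochberg over 46628 probes. Called members and a list of 43 classical factors, 1 brightest probe each, were named by rule. The members and lists were chosen with earlier results of these data known, and the background limit after the values were seen. Single arrays left out, a replicate block, a filter, a trend, 2 further normalizations, a floor, other call rules and other probe choices were tried as alternatives. In data simulated for this design, 67 of 46628 probes were changed by 0.5 on the log2 scale, 67 by 1 and 66 by 2. Of these, 26.9%, 62.7% and 93.9% were recovered, in that order. A change of 0.5 lies under the 1.5-fold limit, which is 0.585 on the log2 scale. The real arrays had 3014 probes at an adjusted p under 0.05, far more than were changed in the simulation. These shares are therefore not the power of the calls made here. Some listed genes are not reported here.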

Additional observations from a re-analysis of the deposited data

How the results depend on the processing

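Of 502 alternative values of 39 member probes, 487 kept their side of the threshold, 13 lost a call, 2 gained one and none reversed a called direction. Most of the 39 probes had no call to lose. The 13 lost calls were 3, 5 and 4 of the 3 Klf4 probes and 1 of Mycbp. With single arrays left out, the number of member probes higher in coculture ran from 1 to 4 and the number lower from 1 to 3. At any fold, 2 member probes were lower. Over 2-fold, 1 was higher, and with the brightest probe of each gene 2 were. Id3 passed in all 13 alternative fits (difference -2.36 to -2.13), Mycbp in 12, and the 3 Klf4 probes in 10, 8 and 9. Mycbp lost its call with arrays centred on the median above background, and the cause was not tested. No likeness by replicate number was seen: deviations of same-numbered arrays from their group means correlated at -0.142, -0.133 and -0.118 over 15400 probes, and 0 of 3 coculture arrays were most alike their own number. With 3 arrays per group these values cannot show whether the experiments were run in pairs. With the replicate block, 3 member probes were higher and 1 lower, and Klf4 probe 2 lost its call (adjusted p = 0.0563). Over all probes, the calls went from 1704 to 1181 with the block, 1073 without coculture replicate 1 and 1021 without monoculture replicate 1. Dim probes, 25 of 84 at background throughout, bound what these arrays can show. Another background limit and the fits of related genes with single arrays left out were added after seeing the data. All called member probes, 4 higher and 1 lower, exceeded the other limit on 1 or more arrays. The calls use no background limit, so this count does not test them. The counts of dim probes were not repeated with the other limit.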
